A study of Mus musculus with 6 samples.

Results

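The genes of the MHC class II pathway in mouse liver were taken as the subunits H2-Aa, H2-Ab1 and H2-Eb1, the peptide editors H2-DMa, H2-DMb1, H2-DMb2, H2-Oa and H2-Ob, the invariant chain gene Cd74 and the class II transactivator gene Ciita. Every probe set that the platform annotation lists for these 10 genes was used, whatever its value, which gave 22 of 45037 probe sets. Of these, 19 are paired with 1 member alone. The other 3 match several genes: 2 are shared by H2-DMb1 and H2-DMb2, which leaves H2-DMb1 with no probe set of its own, and 1 is shared by H2-Ob and the long noncoding RNA gene Gm20506.

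Liver RNA was measured in 3 mice of C57BL/6J and 3 of B6.C3H-6T, with 1 mouse per array. All 6 were females of 8 weeks on a chow diet, and the labels name no treatment of either strain. B6.C3H-6T is congenic on C57BL/6J, carries C3H DNA on chromosome 6 and has low serum IGF-1; where the C3H segment begins and ends is not stated in the labels. H2 members lie on chromosome 17, Cd74 on 18 and Ciita on 16, so that no member lies on the congenic chromosome.

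Class II molecules present peptides from endocytosed protein to CD4 T cells, and are carried mainly by B cells, dendritic cells and macrophages, in liver also by Kupffer cells and sinusoidal endothelium. The alpha and beta chains pair in the endoplasmic reticulum with the invariant chain, which blocks the groove. Lysosomal proteases then cut that chain down to a fragment, which H2-DM exchanges for peptide while H2-O restrains H2-DM. Ciita is recruited to class II promoters through factors bound at the X and Y boxes (RFX at X, NF-Y at Y), and interferon gamma induces it.

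Promoter sequence is shown because class II genes are known to share these boxes, whatever the direction in which their signal differed here. RefSeq promoters (build GRCm38.p6, 250 bases before the start site and the bases just after it) matched 7 of the 10 members in 8 entries: H2-Aa, H2-Eb1, H2-DMa (2 entries), H2-DMb1, H2-DMb2, H2-Oa and H2-Ob. The core of X was searched as AGCAAC and that of Y as GATTGG, on both strands, with X 20 to 30 bases before Y so that the matches cannot overlap. Capitals below mark the matches, and each stretch runs 5′ to 3′ on the gene's strand and ends before the start site.
H2-Aa (chr17:34287855-34287917, minus strand): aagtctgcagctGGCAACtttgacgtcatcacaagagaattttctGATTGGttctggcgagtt
H2-Eb1 (chr17:34305763-34305824, plus strand): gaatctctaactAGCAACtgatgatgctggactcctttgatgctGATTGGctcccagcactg
H2-DMb1 (chr17:34153084-34153146, plus strand): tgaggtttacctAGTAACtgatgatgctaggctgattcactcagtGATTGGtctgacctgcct
H2-DMb2 (chr17:34145115-34145175, plus strand): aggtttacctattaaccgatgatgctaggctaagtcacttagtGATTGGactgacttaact
H2-Oa (chr17:34092290-34092352, plus strand): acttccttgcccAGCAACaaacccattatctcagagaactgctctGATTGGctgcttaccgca
H2-Ob (chr17:34238805-34238864, plus strand): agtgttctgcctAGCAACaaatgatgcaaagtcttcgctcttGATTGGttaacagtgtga

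The exact pair stood in the promoters of H2-Eb1, H2-Oa and H2-Ob, with 26, 27 and 24 bases between the cores. It stood in 24 of all 32851 RefSeq promoters (0.0731%). With 1 mismatch allowed in X, H2-Aa and H2-DMb1 joined them, and 291 promoters held the pair (0.886%). H2-DMb2 held the Y core but not the pair, and of the 2 H2-DMa entries 1 held the Y core. X alone occurred in 14.8% of promoters and Y alone in 16.1%, and X with up to 1 mismatch in 93.5%. The boxes were searched because class II promoters are known to share them, so finding them in members is no new result. A match describes these letters and is not a measured binding site. Of the genes with the exact pair, H2-Eb1 was lower without overlap in B6.C3H-6T, while H2-Oa and H2-Ob overlapped between the strains. Whether the boxes relate to the strain differences was not tested.

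Values below are RMA expression values on the log2 scale, as deposited, so that a difference of 1 is a doubling. A probe set's brightness depends on its own probes, and no detection calls were used, so levels of different probe sets are not ranked. Where a level is called high or low it is only placed against the median probe set, whose mean over the 6 arrays was 6.10. Array medians ran from 6.07 to 6.11. Each difference subtracts the C57BL/6J mean from the B6.C3H-6T mean and comes from limma fitted to all 45037 probe sets, with Benjamini-Hochberg adjustment over all of them.

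H2-Aa, H2-Ab1, H2-Eb1 and Cd74 were lower in the liver of B6.C3H-6T, by 0.46 to 0.72 in the 8 of their probe sets that lay above the median level. The strains did not overlap in any of these 8, but none passed the adjusted threshold of 0.05. The class II chain gene H2-Eb2, which is not a member, overlapped between the strains. H2-Ea, also not a member, overlapped too, but its signal cannot be read as transcript in C57BL/6J, as stated below. Of all probe sets 26 passed (0.0577%), and 0 of the 22 members did; of the 18193 genes 12 passed (0.0660%). At an unadjusted p under 0.05 there were 12 members lower and 1 higher, against 4.82% and 5.74% of all probe sets. At an unadjusted p under 0.01 there were 9 lower (1.56% of all), and 9 were lower by 0.4 or more (0.893% of all). In 11 members every B6.C3H-6T mouse was below every C57BL/6J mouse, and in 1 every one was above, against 6.44% and 9.58% of all probe sets. Of the 11 members above the median level, 10 were lower at an unadjusted p under 0.05 and the same 10 were lower without overlap, against 7.63% and 9.45% of the probe sets above it. The members' median difference was -0.28 and that of all probe sets 0.02. Probe sets of the same gene read the same RNA and are not independent.

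H2-Aa encodes the alpha chain of the I-A molecule, the class II isotype that C57BL/6J mice display. Its brightest probe set (1435290_x_at) read 10.21, 10.32 and 9.83 in C57BL/6J replicates 1 to 3 and 9.43, 9.13 and 9.64 in B6.C3H-6T replicates 1 to 3. All B6.C3H-6T mice were lower than all C57BL/6J mice, with a gap of 0.19 between the nearest of them. The difference was -0.72 ± 0.15 (SE, 3 mice per strain), a 1.65-fold lower signal (limma adjusted p = 0.230).

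A second H2-Aa probe set, 1452431_s_at, read 9.02, 9.31 and 8.81 in C57BL/6J and 8.29, 8.12 and 8.65 in B6.C3H-6T. Its difference was -0.69 ± 0.15 (limma adjusted p = 0.243). The third, 1438858_x_at, differed by -0.62 ± 0.13 (limma adjusted p = 0.231), again without overlap. The fourth, 1443783_x_at, lay below the median level, at 4.30 ± 0.34 (SD) for B6.C3H-6T against 4.67 ± 0.29, and its strains overlapped. All 4 have the suffix _x_at or _s_at, by which the manufacturer marks probes that can also match other transcripts.

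H2-Ab1 encodes the I-A beta chain. Its probe set 1450648_s_at read 9.76, 9.82 and 9.31 in C57BL/6J and 9.11, 8.81 and 9.21 in B6.C3H-6T, so that the nearest mice were 0.10 apart. The difference was -0.59 ± 0.15 (limma adjusted p = 0.284). Probe set 1451721_a_at read 8.56, 8.84 and 8.30 against 8.10, 7.64 and 8.04, a difference of -0.64 ± 0.15 (limma adjusted p = 0.267). In 1425477_x_at the difference was -0.46 ± 0.14 (limma adjusted p = 0.339), and the B6.C3H-6T mice spanned 0.16 where the C57BL/6J mice spanned 0.62. Without C57BL/6J replicate 2 it was -0.30. The 3 probe sets of this gene were all lower without overlap.

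H2-Eb1 encodes the beta chain of the I-E molecule. It read 9.88, 10.09 and 9.60 in C57BL/6J and 9.38, 9.16 and 9.55 in B6.C3H-6T, on 1 probe set. The strains were separate by only 0.055, and the difference was -0.50 ± 0.13 (limma adjusted p = 0.307). The alpha chain gene of I-E, H2-Ea, is known not to be transcribed in C57BL/6 mice because its promoter is deleted, while C3H mice express it. Its 3 probe sets differed by -0.05, -0.05 and -0.03, each with overlap. The 95% intervals of these 3 differences together ran from -0.24 to 0.14. Of them 1422891_at read 8.68 to 8.95 over all 6 mice, and 1422892_s_at and 1426202_at lay below the median level, at 4.32 to 4.45 and 3.87 to 4.04. Given the deleted promoter, the level of 1422891_at cannot be read as H2-Ea transcript in C57BL/6J. H2-Eb2, a further beta chain gene of the region, differed by 0.09 ± 0.06.

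Cd74, the invariant chain gene, was read by 1 probe set. Its values were 10.50, 10.55 and 10.14 in C57BL/6J and 9.87, 9.60 and 9.99 in B6.C3H-6T. Every B6.C3H-6T mouse was lower, by at least 0.16. The difference was -0.58 ± 0.13, with a 95% interval from -0.87 to -0.29 (limma adjusted p = 0.247), a 1.49-fold lower signal.

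**Figure D1:**
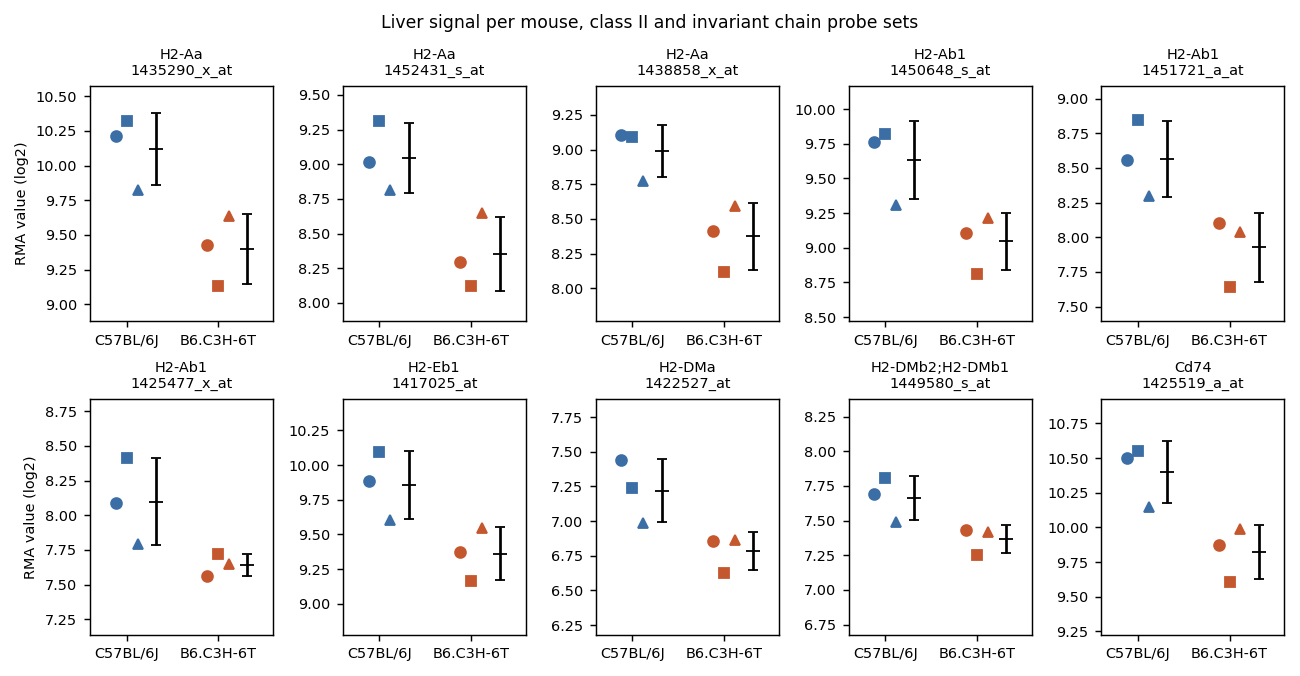
RMA value (log2, y axis) of the 10 member probe sets that lay above the median level and whose strains did not overlap. Each symbol is 1 mouse (circle, square and triangle for replicates 1, 2 and 3; blue for C57BL/6J, red for B6.C3H-6T) and bars show the mean ± SD; every panel spans the same height. All red symbols lie below all blue ones, with the nearest pair 0.055 apart for H2-Eb1 and 0.20 apart for H2-Ab1 1451721_a_at.

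Among the peptide editors the picture was mixed. H2-DMa encodes the alpha chain of H2-DM, and its probe set 1422527_at read 7.44, 7.24 and 6.99 in C57BL/6J and 6.86, 6.62 and 6.86 in B6.C3H-6T. The strains did not overlap, and the difference was -0.44 ± 0.12 (limma adjusted p = 0.307). The other H2-DMa probe set disagreed: 1459872_x_at read 7.11, 6.53 and 6.73 against 6.90, 7.03 and 6.98, with overlap and a difference of 0.18 ± 0.13. This ranged from 0.052 without C57BL/6J replicate 2 to 0.34 without C57BL/6J replicate 1. The gene therefore has a lower and a non-lower probe set, and both lay above the median level.

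The beta chains of H2-DM come from the near-identical genes H2-DMb1 and H2-DMb2. Probe set 1449580_s_at, shared by both, read 7.69, 7.80 and 7.49 in C57BL/6J and 7.43, 7.25 and 7.42 in B6.C3H-6T. This is a difference of -0.30 ± 0.09 without overlap (limma adjusted p = 0.357), and it cannot be assigned to either gene. The other shared probe set, 1418638_at, lay below the median level and differed by -0.11 ± 0.09 with overlap. The 3 probe sets of H2-DMb2 alone also lay below the median level and went both ways. Of these 1419744_at was higher in every B6.C3H-6T mouse (5.65 to 5.75 against 5.49 to 5.60), by 0.16 ± 0.07. In contrast, 1443686_at was lower in every one (4.06 to 4.15 against 4.18 to 4.47), by a difference of -0.21 ± 0.08, or -0.13 without C57BL/6J replicate 2. The third, 1443687_x_at, overlapped.

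H2-Oa and H2-Ob encode the chains of H2-O, which is found mainly in B cells and some dendritic cells. H2-Oa read 5.25 ± 0.12 (SD) for B6.C3H-6T against 5.28 ± 0.06, with a 95% interval of the difference from -0.21 to 0.14. H2-Ob read 4.51, 4.18 and 4.11 against 3.89, 3.96 and 4.14 in 1440837_at, where replicate 3 of B6.C3H-6T overlapped C57BL/6J (difference -0.27 ± 0.11; limma adjusted p = 0.450). Without C57BL/6J replicate 1 the difference was -0.15. The probe set shared with Gm20506 differed by 0.08 ± 0.08. All 3 lay below the median level.

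Ciita, the transactivator gene, lay below the median level in each of its 3 probe sets. In 1421211_a_at it read 5.24, 5.63 and 5.47 in C57BL/6J and 5.50, 5.46 and 5.44 in B6.C3H-6T. The differences were 0.02, 0.12 and 0.04, all with overlap, and their 95% intervals together ran from -0.20 to 0.33. Of the 3 differences 2 changed sign when arrays were centred or 1 array was left out. These values do not show that Ciita RNA was equal in the strains.

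**Figure D2:**
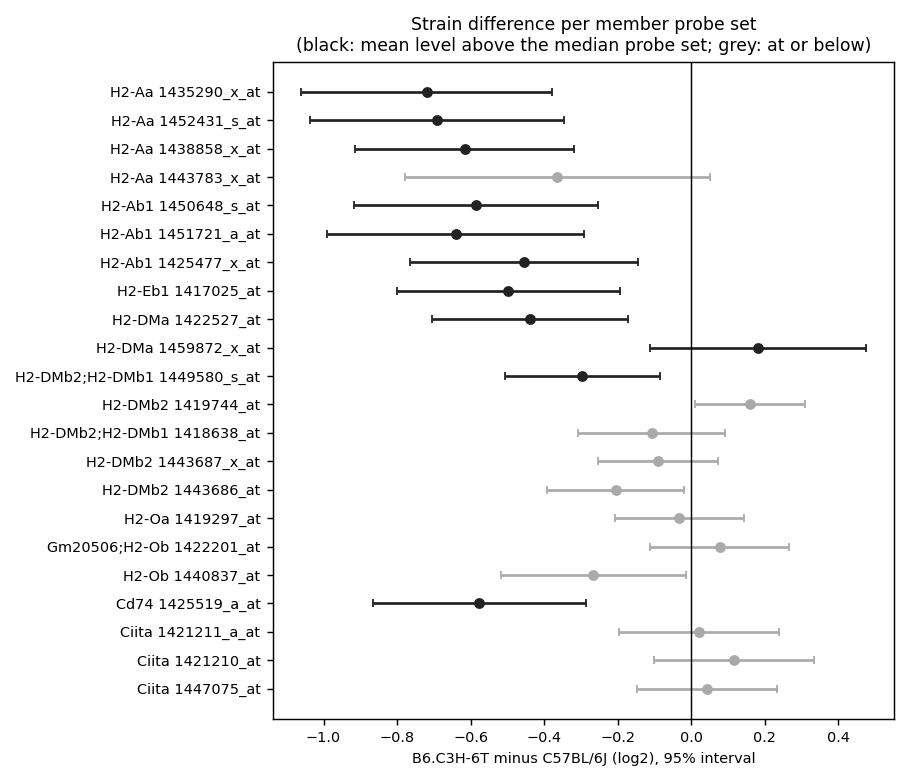
Difference between the strains (log2, x axis) of each of the 22 member probe sets, with its 95% interval from limma. Black points lay above the median level and grey points at or below it. The 8 points of H2-Aa, H2-Ab1, H2-Eb1 and Cd74 in black lie between -0.72 and -0.46, while the 3 of Ciita lie between 0.02 and 0.12.

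The mice kept nearly the same order across the lower members. Over the 10 probe sets above the median level without overlap, replicate 3 was the lowest C57BL/6J mouse in 10 and replicate 2 the highest in 8. Replicate 2 was the lowest B6.C3H-6T mouse in 9, and replicate 3 the highest in 7. Leaving out B6.C3H-6T replicate 2 moved the difference of 1435290_x_at to -0.59, the smallest over all 6 arrays left out in turn.

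The transcription factors of class II genes were given by a list of 10, all measured, with 7 lower and 3 higher and a median of -0.02. Of 18193 genes, each represented by its brightest probe set, 5.80% were lower and 6.34% higher at an unadjusted p under 0.05, with a median of 0.02. In the list 1 of 10 was lower at that level, Nfyb, a subunit gene of the Y box factor NF-Y, at 8.48 ± 0.20 (SD) against 8.14 ± 0.21 with overlap (-0.33 ± 0.13; limma adjusted p = 0.420). Without C57BL/6J replicate 1 it was -0.22. No gene of the list was at that level without this array or without B6.C3H-6T replicate 2, and 2 were without B6.C3H-6T replicate 3. A second Nfyb probe set differed by -0.24 ± 0.11, also with overlap. The RFX subunit genes Rfx5, Rfxank and Rfxap differed by -0.09, -0.17 and 0.11, each with overlap.

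The list for class II assembly, invariant chain cleavage and turnover had 11 of 12 genes measured, with 5 lower, 6 higher and a median of 0.00. Without overlap 2 were lower and 2 higher, against 7.49% and 10.3% of all genes. At an unadjusted p under 0.05 there were 1 lower and 2 higher, against 5.80% and 6.34%. Marchf8, a membrane ubiquitin ligase whose family removes class II molecules from the cell surface, had the smallest p in the list and lies on chromosome 6. Whether it lies within the C3H segment is not stated in the labels. On 1 probe set, Marchf8 read 8.999, 8.905 and 8.863 in C57BL/6J and 8.223, 8.381 and 8.487 in B6.C3H-6T. These do not overlap, and the difference was -0.56 ± 0.08 (limma adjusted p = 0.0813). Its relative Marchf1, the ligase known for class II in B cells and dendritic cells, differed by 0.0042 ± 0.060 in its brightest probe set, but by -0.22 ± 0.08 without overlap in 1434955_at (limma adjusted p = 0.417). All 3 Marchf1 probe sets lay below the median level.

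The proteases did not share a direction. Ctsl and Ctsb, genes of lysosomal cathepsins that hepatocytes also express, were higher in every B6.C3H-6T mouse, by 0.22 ± 0.07 and 0.17 ± 0.07 (limma adjusted p = 0.348 and 0.446). They were the 2 of the 11 listed genes that were higher without overlap, against 10.3% of all genes. Ctss, the cathepsin that cuts the invariant chain in antigen-presenting cells, read 10.23, 10.51 and 10.28 against 10.22, 10.03 and 10.21, a difference of -0.19 ± 0.09 (limma adjusted p = 0.514) whose strains were barely apart. The legumain gene Lgmn and the thiol reductase gene Ifi30 differed by -0.19 and -0.11, both with overlap.

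Of the interferon gamma list 15 of 16 genes were measured, 10 lower and 5 higher, with a median of -0.13. At an unadjusted p under 0.05 there were 6 lower and 0 higher, against 5.80% and 6.34% of all genes. The 6 became 2 without B6.C3H-6T replicate 2, 3 without C57BL/6J replicate 1 and 2 without moderated variances. Igtp and Irgm1, genes of interferon-induced GTPases, differed by -0.33 ± 0.08 and -0.20 ± 0.08, and the guanylate-binding protein genes Gbp2 and Gbp3 by -0.45 ± 0.17 and -0.26 ± 0.10. Without B6.C3H-6T replicate 2 the Gbp2 and Gbp3 differences were -0.26 and -0.15. The receptor subunit gene Ifngr2 differed by -0.31 ± 0.09 and the transcription factor gene Irf1 by -0.23 ± 0.09. Irgm1 and Irf1 overlapped between the strains and the other 4 did not, and limma adjusted p over the 6 ran from 0.273 to 0.445. Ifng itself lay below the median level and differed by 0.07 ± 0.08.

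Class I and peptide loading genes, most of them in the same region of chromosome 17, had 12 of 18 measured, with 8 lower, 4 higher and a median of -0.04. H2-K1, H2-D1 and B2m, the genes of the classical class I chains and their light chain, differed by 0.07 ± 0.08, 0.06 ± 0.07 and 0.02 ± 0.07. The probe sets of H2-K1 and H2-D1 have the suffix _x_at and can also match other transcripts. At an unadjusted p under 0.05 there were 2 lower and 0 higher, against 5.80% and 6.34% of all genes. The 2 were H2-M3, a class I gene for formylated peptides (-0.21 ± 0.06), and the transporter gene Tap2 (-0.17 ± 0.07). Both were lower without overlap and H2-Q10 was higher without overlap (0.14 ± 0.07), against 7.49% and 10.3% of all genes. The count at an unadjusted p under 0.05 was 1 without B6.C3H-6T replicate 2, B6.C3H-6T replicate 3 or C57BL/6J replicate 1, and 4 without C57BL/6J replicate 3. Whether class II genes differed more than class I genes was not tested. Of 6 costimulation genes 3 were lower and 3 higher. Only Cd274, which encodes the inhibitory ligand PD-L1, was lower in all B6.C3H-6T mice (-0.42 ± 0.10, limma adjusted p = 0.256), against 7.49% of all genes.

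Markers of macrophages differed between the strains in the same direction as the lower members. All 11 genes of the Kupffer cell and macrophage list were lower in B6.C3H-6T, 10 at an unadjusted p under 0.05 and 9 without overlap (against 5.80% and 7.49% of genes), with a median of -0.28. The 10 became 4 without C57BL/6J replicate 2, 5 without B6.C3H-6T replicate 2 and 5 without moderated variances. The list includes Timd4 (-0.47 ± 0.11), a receptor gene of resident Kupffer cells, and the Kupffer cell lectin gene Clec4f (-0.26 ± 0.11), which lies on chromosome 6. C1qc, a complement gene of macrophages, differed by -0.31 ± 0.09. The scavenger receptor gene Marco differed by -0.65 ± 0.23 with overlap. None passed over all probe sets (smallest limma adjusted p = 0.256, for Timd4). The log2 of the list's summed signal was 13.14 to 13.38 for B6.C3H-6T against 13.48 to 13.70. Within C57BL/6J the order of mice was not that of the members. The mean of the 11 markers was lowest in replicate 1 (9.54, against 9.65 in replicate 3), while replicate 3 was lowest in all 10 lower members. Replicate 2 of B6.C3H-6T was the lowest of its strain in the marker mean (9.20) and in 9 of those members. In whole liver, fewer cells of a type and less RNA per cell cannot be told apart.

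Within each array the mean of these 11 markers was then subtracted from each of the 10 lower members, which gives a ratio to macrophage signal. These 10 were picked because their strains did not overlap, so the exact p-values below are descriptive only. H2-Aa (1435290_x_at) minus the markers was 0.67, 0.52 and 0.18 in C57BL/6J and 0.01, -0.07 and 0.21 in B6.C3H-6T. On this scale the strains overlapped, with a difference of -0.41 where the unsubtracted one was -0.72 (two-sided exact permutation p = 0.2, with 0.1 the smallest that 3 against 3 arrays allow). For Cd74 the difference was -0.26 (exact permutation p = 0.2), and for H2-Eb1 -0.18 (exact permutation p = 0.3). Without C57BL/6J replicate 1 these were -0.15 and -0.11, and without C57BL/6J replicate 3 the H2-Eb1 value was -0.31. For H2-DMa 1422527_at it was -0.13, and for the probe set shared by H2-DMb1 and H2-DMb2 0.02 (exact permutation p = 0.8 for each). All 10 overlapped after the subtraction. The ratio compares members with markers and does not show which of them differed.

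**Figure D3:**
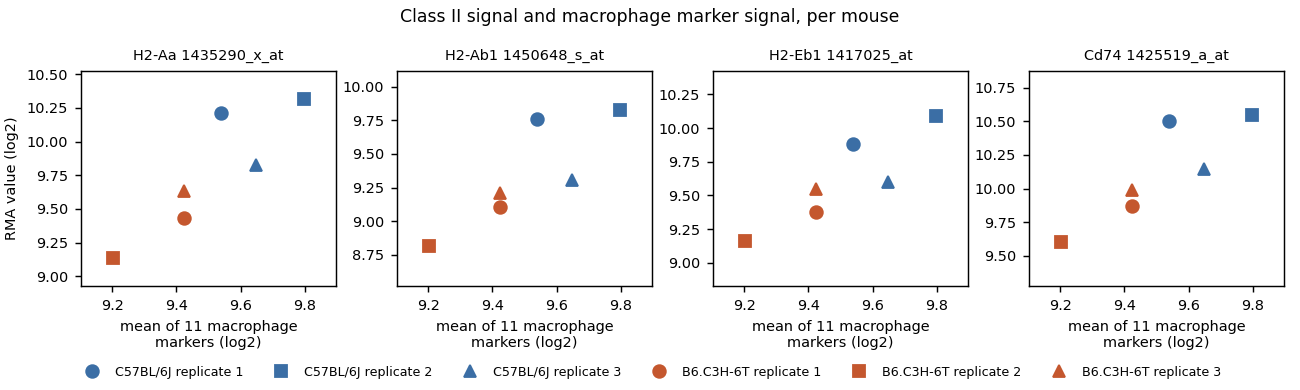
RMA value (log2, y axis) of a probe set each of H2-Aa, H2-Ab1, H2-Eb1 and Cd74 against the mean of the 11 macrophage markers (log2, x axis), 1 symbol per mouse. B6.C3H-6T replicate 2 lies lowest on both axes (9.20 for the markers) and C57BL/6J replicate 2 highest (9.80). C57BL/6J replicate 1, at 9.54 on the x axis, lies above replicate 3, at 9.65, in all 4 panels.

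Markers of dendritic cells and B cells gave smaller differences. Of 10 measured dendritic cell markers 4 were lower and 6 higher, none at an unadjusted p under 0.05, and 5 lay above the median level. The log2 of their summed signal was 9.73 to 9.82 for B6.C3H-6T against 9.76 to 9.80. Of 9 B cell markers 5 were lower and 4 higher. Of them 1 was lower at an unadjusted p under 0.05 (against 5.80% of all genes), the B cell receptor gene Cd79b (-0.25 ± 0.10, with overlap). This count was 3 with arrays centred on their medians, 2 under quantile normalization and 0 without B6.C3H-6T replicate 2 or C57BL/6J replicate 1. The log2 of the sum was 9.75 to 9.85 for B6.C3H-6T against 9.81 to 9.88. The mean over the B cell markers was lower in every B6.C3H-6T mouse, but the strains were barely apart (6.246 to 6.265 against 6.268 to 6.322). The difference was -0.050 (exact permutation p = 0.1, the smallest possible). The mean over the macrophage markers differed by -0.31 (exact permutation p = 0.1). RMA gives no value of 0. Of the 9 B cell markers 4 lay above the median level, among them Ighm and Cd22, while Pax5 and Cd79a lay below it. Among the dendritic cell markers Flt3 and Zbtb46 lay above it, and Xcr1 and Clec10a below it.

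Of 9 sinusoidal endothelial markers 8 were lower, with a median of -0.07. At an unadjusted p under 0.05 there was 1 lower (against 5.80% of all genes), the mannose receptor gene Mrc1 (-0.19 ± 0.08), which macrophages also express. None was at that level without B6.C3H-6T replicate 2, C57BL/6J replicate 2 or C57BL/6J replicate 3. The log2 of their sum was 12.08 to 12.27 for B6.C3H-6T against 12.21 to 12.31. T and NK cell markers had 3 of 6 lower (median 0.00017), with 9.25 to 9.31 for the log2 of the sum against 9.25 to 9.29. Neutrophil markers had 3 of 5 lower (median -0.08), with 8.71 to 8.80 against 8.70 to 8.83. The other 2, the granule protein genes Ngp (0.23 ± 0.07) and Camp (0.14 ± 0.07), were higher without overlap, against 10.3% of all genes. The 6 hepatocyte markers had a median of 0.01 (16.65 to 16.70 against 16.60 to 16.73), and Alb, the albumin gene that marks the labelled tissue, read 14.50 to 14.56 over the 6 mice. The part of any cell type in the members' differences was not tested, and the ratio to macrophage markers only describes probe sets picked for their difference.

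**Figure D4:**
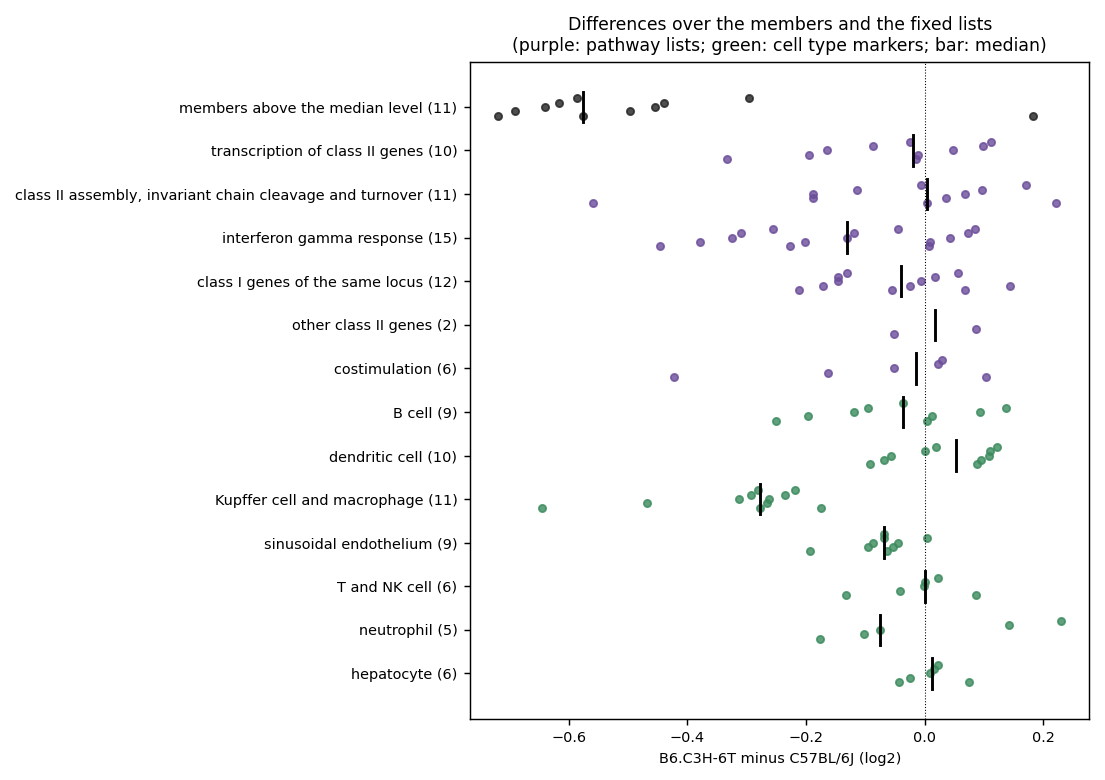
Difference between the strains (log2, x axis) of the 11 member probe sets above the median level (black) and of each measured gene of the pathway lists (purple) and cell type marker lists (green); the number in parentheses counts the points and the bar is the median. The macrophage markers lie between -0.65 and -0.18, and the medians of the B cell and dendritic cell markers are -0.04 and 0.05.

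Genes with the most similar pattern were sought among 2036 probe sets of 1 gene with a mean of at least 6 and an SD of at least 0.2 over the 6 arrays. The measure of likeness was Pearson's r with the mean of the brightest probe sets of H2-Aa, H2-Ab1, H2-Eb1 and Cd74, as a description over 6 arrays that include the strain difference. The 8 highest were Clec7a (0.989), the beta-glucan receptor gene of myeloid cells on chromosome 6, Aif1 (0.987), a macrophage gene on chromosome 17, and the leukocyte surface genes Cd52 (0.987) and Cd53 (0.985). Then came Slc12a7 (0.984), a potassium-chloride cotransporter gene, Arel1 (0.977), a ubiquitin ligase gene, Sh3bgrl2 (0.975) and the actin-binding protein gene Lima1 (0.974). Clec7a read 8.49, 8.62 and 8.32 in C57BL/6J and 7.98, 7.85 and 8.16 in B6.C3H-6T, with no overlap and a difference of -0.48 ± 0.10 (limma adjusted p = 0.231). It was picked for its likeness to a profile that itself differed between the strains, so these values are descriptive and no separate strain result.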

How the data were processed

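Each array's deposited numbers are on the log2 scale, and RMA and affy are the tools named for them, per the submitters' processing notes. Image quantification used GCOS 1.2, per the labels. The sources used here give no version of RMA or affy, no later step and no scan date. Of 45101 probe sets 64 controls were left out. Names came from the platform annotation, updated by gene identifier to RefSeq: 34945 probe sets had 1 gene, 932 several and 9160 none. The strain contrast was fitted by lmFit and eBayes (limma 3.58.1, R 4.3.3) with neither covariate nor filter. In 10 simulated runs of this comparison over 45037 probe sets with 200 changed in each, it recovered 47.6% of the changes of 0.5 and 91.7% of those of 1, and 3.84% of calls were false. The changed probe sets were drawn at random from all, with noise drawn independently for each probe set. Listed genes were represented by the brightest probe set of that gene alone. Named were all members, genes of the pathway lists at an unadjusted p under 0.05 (otherwise the 2 of smallest p), and the 8 genes most like the members; other pathway genes and all marker genes were named after their values were seen. The members, lists and tests were chosen with earlier results of these data known, and the motifs and the ratio to macrophage markers after seeing the data. Replicate numbers follow accession order and only name mice. Alternatives were other normalizations, filters, variance models and array weights, and leaving out each array.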

Additional observations from a re-analysis of the deposited data

How the results depend on the processing

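The 10 member probe sets shown as lower without overlap gave differences from -0.86 to -0.22 over the alternative fits, and none was called in any. Their sign is no sign of stability, because probe sets whose strains do not overlap cannot change sign when an array is left out. The lowest adjusted p of any member was 0.132, for H2-Aa 1452431_s_at without B6.C3H-6T replicate 3.

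The count of members at an unadjusted p under 0.05 (13 of 22) was 8 of 22 without moderated variances. It was 7 once _x_at and _s_at probe sets were dropped and 7 with 1 probe set per gene. These last 2 settings held fewer member probe sets, the per-gene one only 1 for every member but H2-DMb1. Their counts are therefore not comparable with 13 of 22 as they stand. The count without overlap (12 of 22) was 6 under each of these 2 settings, again on fewer probe sets. Pathway list genes at that p (13) numbered 7 without moderated variances and 6 to 13 without 1 array, lowest without B6.C3H-6T replicate 2. The 26 calls of 45037 probe sets became 13 of 18193 genes, and 0 without moderated variances (3841 at an unadjusted p under 0.05). They numbered 11 to 17 without 1 array, lowest without C57BL/6J replicate 3. The promoter pair was in 3 member promoters, or 5 with 1 mismatch.

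Without subtraction of markers, signs turned only where the main difference was near 0. Ciita 1421211_a_at went to -0.0050 when arrays were centred and -0.011 under quantile normalization, and ranged from -0.082 to 0.11 without 1 array. Ciita 1447075_at ranged from -0.016 to 0.10, H2-Oa from -0.10 to 0.012 and H2-Ea 1422891_at from -0.12 to 0.014. Relative to macrophage markers, H2-DMa 1422527_at was -0.13 in the main fit and turned sign, ranging from -0.24 to 0.044 without 1 array. On that scale H2-DMb1 with H2-DMb2 ranged from -0.063 to 0.094, or -0.038 with summed signal. No paired analysis was possible because the labels give no replicate numbers that the strains share. With 3 arrays per strain, the simulated comparison recovered 47.6% of differences of 0.5, so that a difference of that size can miss the threshold. That share is for probe sets drawn at random from all, and recovery for probe sets as variable as the members was not simulated.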
